A study of Macaca fascicularis with 56 samples.

Results

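The 63 genes described here encode the heat shock proteins and their DnaJ (J-protein) co-chaperones, measured in the whole blood of cynomolgus macaques over 8 h. They were chosen by gene symbol alone, as the probe sets whose only symbol names a DNAJA, DNAJB, DNAJC, HSPA, HSPB or HSP90 gene or is HSPD1, HSPE1 or HSPH1. Each gene was read by its brightest probe set, which had to lie above the array median on at least 4 of the 56 arrays. That left 63 of 65 candidate symbols, among 16020 genes tested in all, and DNAJB7 and HSPB7 did not pass. The 63 members were 9 HSP70, 3 HSP110, 3 HSP90, 2 chaperonin, 6 small heat shock protein, 4 DNAJA, 11 DNAJB and 25 DNAJC genes. The inducible HSPA1A and HSPA1B and the constitutive HSPA8 were read only by probe sets that list several symbols, which the rule leaves out, and they are not analysed here.

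Chaperones bind unfolded stretches of other proteins and keep them from clumping. HSP70 proteins do this in cycles of ATP hydrolysis, J-proteins deliver the client and start the cycle, and HSP110 proteins act as nucleotide exchange factors that end it. HSP90 takes over late folding steps of kinases and receptors, the chaperonin pair HSPD1 and HSPE1 folds proteins inside mitochondria, and small heat shock proteins hold unfolded clients without ATP. In the cytosol the transcription factor HSF1 drives the inducible members during heat and other stress, while the endoplasmic reticulum and the mitochondria have their own HSP70s and J-proteins under separate stress responses.

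The study challenged animals with endotoxin and treated them with LR12, a short peptide from the TREM-like transcript 1 protein that binds ligands of the innate immune receptor TREM-1 in the receptor's place. Arrays were made at 0, 2, 4 and 8 h from 6 animals given LR12 (Y31309 to Y31314), 4 given a control peptide with the LR12 residues scrambled (Y31305 to Y31308) and 4 given vehicle (Y31301 to Y31304). Whether endotoxin was also given with vehicle, what event hour 0 marks and the doses are not stated in the labels. RNA came from PAXgene blood tubes, so each array reads a mixture of blood cells, and in such bulk samples fewer cells of a type and less RNA per cell cannot be told apart. The arrays carry human probe sets, so macaque bases that differ from the human probe dim a signal, and no gene's level is set against another's below. All levels are log2 of the deposited MAS5 intensity, all changes are differences of log2 levels with their standard errors, and a change of 1 is a 2-fold difference.

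Calls are adjusted p-values below 0.05 from limma, with the Benjamini-Hochberg adjustment over all 16020 genes. The 3 later hours of an arm share its 0 h arrays, and arms compared with LR12 at an hour share the LR12 arrays. In the LR12 arm the cell markers moved in the same hours as the chaperones. The mean log2 level of the T cell markers ranged from 8.50 to 9.02 over the 6 animals at 0 h, from 5.87 to 7.18 at 4 h and from 6.28 to 7.45 at 8 h, and 9, 11 and 11 of 11 fell at 2, 4 and 8 h. The neutrophil markers ranged from 9.17 to 10.24 at 0 h and from 10.59 to 10.93 at 2 h, and 7, 7 and 6 of 9 rose. B cell markers fell in 6, 5 and 4 of 7 cases and NK and cytotoxic markers in 4, 6 and 5 of 8. Of 7 monocyte markers 3, 5 and 4 rose and 3, 2 and 0 fell. Of 6 platelet markers 1, 0 and 0 rose and 0, 3 and 2 fell, and of 5 erythroid markers 0, 0 and 3 fell and none rose. No deposited marker value was at 0. The log2 difference between the 3' and 5' control probe sets of GAPDH, a measure of RNA length, averaged 1.21 at 0 h and 0.79, 0.68 and 0.67 at the later hours in this arm. The same difference for ACTB was 1.73 at 0 h and 1.48, 1.92 and 1.72 later. Marker levels also shifted in the other arms. The T cell markers ranged from 7.80 to 8.84 at 0 h and from 6.63 to 7.79 at 4 h in the peptide control. In the vehicle arm they ranged from 7.77 to 9.19 and from 7.09 to 8.09. At 4 h 1 and 0 of 11 fell in these arms. The mean of the NK and cytotoxic markers went from 7.29 to 6.50 and from 7.45 to 6.81, with 2 and 0 of 8 called lower. The part of these shifts in the changes below was not tested.

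In the LR12 arm 22 members changed at 2 h, or 34.9% of them, against 32% of all genes. At 4 h 20 members changed (31.7%, against 36.8% of all genes) and at 8 h 19 did (30.2%, against 29.1%), so the share called was near the background throughout. By direction, 5 members rose and 17 fell at 2 h, where 10.1% of all genes rose and 21.9% fell. The 4 h calls were 6 rises and 14 falls, beside 10.8% and 26% of all genes. The 8 h calls were 3 rises and 16 falls, beside 8.65% and 20.4% of all genes. The median change of the members was -0.42, -0.26 and -0.40, beside -0.18, -0.29 and -0.27 for all genes. In the peptide control arm 1, 0 and 2 members rose at 2, 4 and 8 h, where 2.2%, 1.9% and 0.487% of all genes rose. None fell, where 1.1%, 2.95% and 0.243% of all genes did, and in either direction 3.3%, 4.84% and 0.73% of all genes were called. There 8, 12 and 5 members had an unadjusted limma p below 0.05, and blocking on the animal gave 3, 5 and 2 calls. In the vehicle arm limma called 0 members at each hour, with 0%, 0.0125% and 0.0375% of all genes called (0.025% downward at 8 h), while 4, 4 and 6 members had an unadjusted p below 0.05 and the block called 0, 1 and 1.

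**Figure D1:**
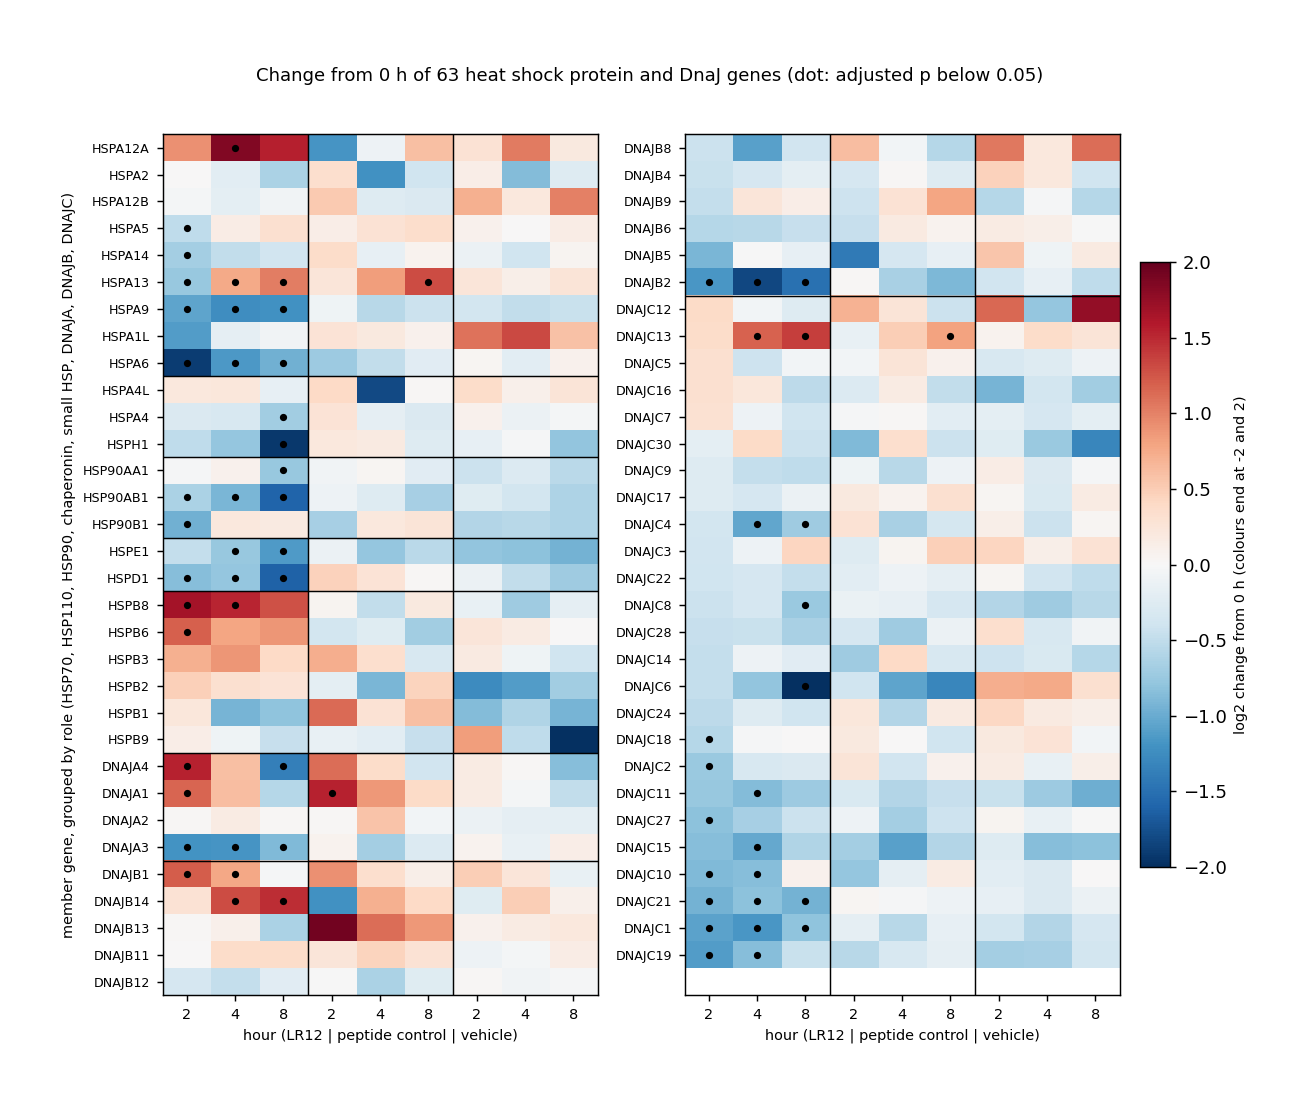
Change in log2 intensity from 0 h for the 63 members (rows, grouped by role) at 2, 4 and 8 h in the LR12, peptide control and vehicle arms (columns), with a dot where limma's adjusted p was below 0.05. The LR12 columns hold 22, 20 and 19 dots, the peptide control columns 1, 0 and 2 and the vehicle columns none.

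By role the LR12 calls were as follows, with no test of a difference between roles. Of 6 small heat shock proteins 2, 1 and 0 rose at 2, 4 and 8 h and none fell, and of the 2 chaperonin genes 1, 2 and 2 fell and none rose. Of all genes 10.1%, 10.8% and 8.65% rose at these hours. Of 25 DNAJC genes 7, 7 and 5 fell and 0, 1 and 1 rose, shares of falls near the 21.9%, 26% and 20.4% of all genes. Of 9 HSP70 genes 5, 2 and 2 fell and 0, 2 and 1 rose. Of the 3 HSP110 genes 2 fell at 8 h, after no call at 2 and 4 h. In all, 34 members were called at some hour in the LR12 arm, 8 fell at all 3 hours, and 29 were not called at any. The shares of all genes with these patterns over the hours were not counted, so these numbers only describe the members.

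Of the 4 DNAJA and 11 DNAJB genes DNAJA1, DNAJA4 and DNAJB1 rose at 2 h in the LR12 arm, and DNAJA3 and DNAJB2 fell. Other J-proteins of the cytosol, named after their values were seen, did not pass the test at 2 h, with changes of 0.019 for DNAJA2, -0.44 for DNAJB4 and -0.57 for DNAJB6. DNAJA1, a cytosolic partner of HSP70, had a lowest, median and highest level in the 6 LR12 animals of 10.52, 10.80 and 11.72 at 0 h, then 11.64, 12.12 and 12.63 at 2 h; LR12 levels of other members are given in the same order. It was higher at 2 h in 6 of 6 animals, although the groups overlapped by a small margin (1.16 ± 0.30, adjusted p = 0.00214). At 4 h its levels were 11.10, 11.60 and 12.03 (0.62, adjusted p = 0.101, and 0.0432 with the animal as a block), and from 4 to 8 h it fell by 1.19 (adjusted p = 0.00946).

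The peptide control animals also showed the DNAJA1 rise. Their levels, Y31305 to Y31308, were 9.74, 10.17, 10.17 and 9.62 at 0 h and 9.91, 12.09, 12.10 and 11.73 at 2 h. DNAJA1 rose there by 1.53 ± 0.37 (adjusted p = 0.0108, up in 4 of 4), with 3 animals high and Y31305 barely above its own start. The call was lost without Y31306 (adjusted p = 0.159), Y31307 (0.105) or Y31308 (0.182). The difference in change between LR12 and the peptide control was -0.37, with a 95% interval from -1.33 to 0.59 (adjusted p = 0.803). In the vehicle arm the levels of Y31301 to Y31304 were 11.17, 10.79, 10.04 and 10.76 at 0 h and 10.45, 10.09, 12.12 and 10.78 at 2 h, so that Y31303 alone stood high (0.17, adjusted p = 0.999). At 0 h, before the rise, every LR12 animal lay above every peptide control animal for DNAJA1 (1.0 ± 0.34, adjusted p = 1.0).

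DNAJB1, the main stress-inducible J-protein of the cytosol, also rose at 2 h in the LR12 arm. Its levels were 9.0, 9.21 and 9.80 at 0 h, 9.98, 10.49 and 11.02 at 2 h, then 9.60, 10.04 and 10.54 at 4 h. The rise at 2 h, with no overlap between the hours, was 1.22 ± 0.24 (adjusted p = 6.54e-05, 6 of 6). At 4 h it was 0.77 ± 0.24 (adjusted p = 0.00758), a call lost without Y31309 (0.0616) and with the gene's second probe set (0.34, adjusted p = 0.326). By 8 h the difference from 0 h was -0.02. The peptide control animals had 8.38, 8.93, 8.90 and 9.08 at 0 h and 9.11, 10.02, 9.90 and 9.91 at 2 h. All 4 were above every starting value, but the change of 0.91 ± 0.29 was called only with the block (adjusted p = 0.0681 without and 0.0176 with it). The vehicle animals had 9.75, 9.06, 8.75 and 9.21 and then 9.26, 9.77, 10.47 and 9.21, a mixed picture (0.49, adjusted p = 0.886).

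DNAJA4, a cytosolic J-protein of the same class as DNAJA1, rose and then fell below its start. The LR12 levels were 6.25, 7.35 and 7.69 at 0 h, 7.85, 8.87 and 9.62 at 2 h, then 4.32, 6.10 and 6.50 at 8 h. At 2 h, with no overlap, the change was 1.53 ± 0.43 (adjusted p = 0.00439). At 8 h it was -1.37 ± 0.43 (adjusted p = 0.0129, lower in 6 of 6), a call lost without Y31314 (0.0986), with array centring (-1.09, adjusted p = 0.0772) and with quantile normalization (adjusted p = 0.0511), while its other probe sets gave -0.55 to 0.06. In the peptide control arm its 2 h change was 1.12 (adjusted p = 0.301).

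**Figure D2:**
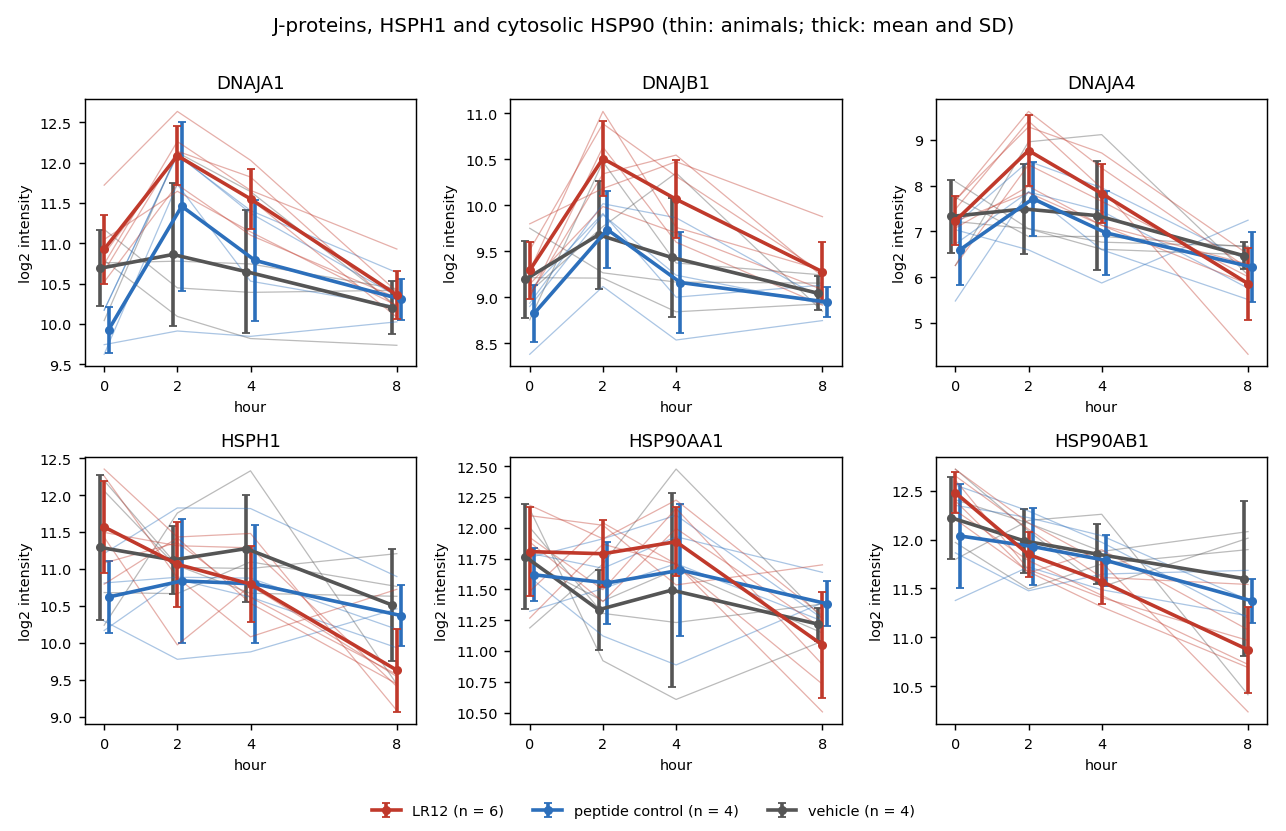
Log2 intensity of 6 cytosolic members by hour, with a thin line for each animal and a thick line for the arm mean ± SD (LR12 red, n = 6; peptide control blue, n = 4; vehicle grey, n = 4). In the LR12 arm DNAJA1, DNAJB1 and DNAJA4 peak at 2 h (changes of 1.16, 1.22 and 1.53), and HSPH1, HSP90AA1 and HSP90AB1 end lower at 8 h (-1.94, -0.76 and -1.60).

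No HSP110 or HSP90 gene rose at 2 h in the LR12 arm. HSPH1, the stress-inducible HSP110 and a known HSF1 target, had LR12 levels of 10.79, 11.46 and 12.35 at 0 h, 9.97, 11.34 and 11.43 at 2 h, 10.08, 10.69 and 11.48 at 4 h, then 9.09, 9.50 and 10.72 at 8 h. The 8 h levels lay below every starting level (-1.94 ± 0.36, adjusted p = 5.82e-05, 6 of 6). Changes at 2 h (-0.50, adjusted p = 0.31) and 4 h (-0.77, adjusted p = 0.085) were not called. In the peptide control arm the 4 animals went from 10.30, 11.21, 10.81 and 10.17 at 0 h to 10.46, 10.90, 10.18 and 9.93 at 8 h (-0.25, adjusted p = 0.857). Vehicle levels were 12.06, 12.20, 10.24 and 10.68 at 0 h and 11.21, 10.63, 9.44 and 10.76 at 8 h (-0.78, adjusted p = 0.839). The 8 h change in LR12 minus that in the peptide control was -1.69 (95% interval -2.82 to -0.55), which did not pass the adjustment (adjusted p = 0.859). HSPA4, another HSP110, also fell at 8 h (-0.69 ± 0.23, adjusted p = 0.0181, 5 of 6), a call lost without Y31309 (0.0819), Y31311 (0.0581) or Y31312 (0.129) and with centring (-0.42, adjusted p = 0.274).

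HSP90AB1, the constitutive cytosolic HSP90, declined step by step in the LR12 arm. Its levels were 12.21, 12.50 and 12.72 at 0 h, 11.66, 11.74 and 12.17 at 2 h, 11.31, 11.52 and 11.90 at 4 h, then 10.24, 10.85 and 11.54 at 8 h, with no later hour overlapping 0 h. The changes were -0.63 ± 0.21 (adjusted p = 0.0182), -0.91 (adjusted p = 0.000586) and -1.60 ± 0.21 (adjusted p = 3.55e-07). The 2 h call was lost without Y31310 (0.0707) or Y31313 (0.0517), with array centring (0.0641) and with its second probe set (-0.69, adjusted p = 0.0752). The inducible HSP90AA1 changed little at 2 and 4 h (-0.02 and 0.08) and fell at 8 h by 0.76 on the log2 scale (SE 0.22, adjusted p = 0.00617, 6 of 6). Its levels went from 11.27, 11.90 and 12.18 to 10.51, 11.04 and 11.70, and array centring ended the call (-0.48, adjusted p = 0.169), while its other probe sets gave -0.99 to 0.67. Peptide control animals had HSP90AB1 levels of 11.86, 12.56, 12.35 and 11.38 at 0 h and 11.68, 11.20, 11.38 and 11.22 at 8 h (-0.66, adjusted p = 0.22). In the vehicle arm they were 12.41, 12.72, 11.80 and 11.97 and then 12.08, 12.01, 10.41 and 11.90, with Y31303 low (-0.62, adjusted p = 0.68).

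Between the later hours of the LR12 arm 4 members rose and none fell from 2 to 4 h, and 1 rose and 6 fell from 4 to 8 h. Of all genes 5.3% rose and 6.22% fell over the first interval (11.5% in all), and 3.22% rose and 2.45% fell over the second (5.67% in all). All 6 that fell from 4 to 8 h belong to the cytosol. DNAJA4 (-1.97, adjusted p = 0.00235) kept its call with any 1 animal left out. HSP90AA1 (-0.84, adjusted p = 0.0106) lost it without Y31313 (0.0769) or Y31314 (0.0508), and DNAJA1 (-1.19) without Y31312 (0.0501), Y31313 (0.0619) or Y31314 (0.0506). DNAJB1 (-0.79, adjusted p = 0.0335) lost it without any LR12 animal but Y31310 (0.0598 to 0.134), and HSP90AB1 (-0.70, adjusted p = 0.0387; 0.0652 to 0.245) and HSPH1 (-1.17, adjusted p = 0.039; 0.0846 to 0.224) without any but Y31309. Centring the arrays ended the calls of DNAJB1 (0.105), HSP90AB1 (0.096) and HSPH1 (0.0764) over this interval.

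Among the 8 members of the endoplasmic reticulum lumen, or with a J domain facing it, HSPA5, HSP90B1, HSPA13, DNAJC1 and DNAJC10 fell at 2 h in the LR12 arm. This grouping was made with the values known and is a description. At 2 h 5 of the 8 fell and none rose, where 21.9% of all genes fell and 10.1% rose. At 4 h 1 rose and 2 fell (10.8% and 26% of all genes), and at 8 h 1 rose and 1 fell (8.65% and 20.4%). Their median change was -0.63, 0.18 and 0.26 at the 3 hours. HSPA5, the lumenal HSP70 also called BiP, had LR12 levels of 11.76, 11.92 and 12.46 at 0 h, 11.01, 11.58 and 11.92 at 2 h, 11.87, 12.26 and 12.30 at 4 h, then 12.04, 12.35 and 12.73 at 8 h. It fell at 2 h (-0.51 ± 0.16, adjusted p = 0.0137, 6 of 6) and rose from 2 to 4 h (0.66 ± 0.16, adjusted p = 0.0043, 6 of 6). The 2 h call was lost with array centring (adjusted p = 0.0935) and with its second probe set (-0.07, adjusted p = 0.962), which gave 0.34 from 2 to 4 h (adjusted p = 0.877). The 8 h change of 0.33 (adjusted p = 0.131) was called with array centring (0.60, adjusted p = 0.026). It was also called when a high or low spike-in control signal of the array was a covariate (0.44, adjusted p = 0.0178). At 2 h the peptide control animals went from 11.30, 11.51, 11.92 and 10.79 to 11.53, 11.80, 11.20 and 11.53, in no common direction.

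HSP90B1, the lumenal HSP90 also called GRP94, likewise fell and then rose. Its LR12 levels were 9.86, 10.01 and 11.21 at 0 h, 8.91, 9.19 and 10.21 at 2 h, then 9.41, 10.66 and 11.14 at 4 h. It fell at 2 h (-0.96 ± 0.32, adjusted p = 0.0183, 6 of 6) and rose from 2 to 4 h (1.16 ± 0.32, adjusted p = 0.0112, 6 of 6). The 2 h call was lost without Y31312 (0.085) and with array centring (0.0549). The rise from 2 to 4 h was lost without Y31310 (0.0523), Y31312 (0.0729) or Y31313 (0.0592). The 2 h change was -0.67 in the peptide control arm (adjusted p = 0.452) and -0.58 in the vehicle arm (adjusted p = 0.93).

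HSPA13, an HSP70-like protein of the endoplasmic reticulum, fell at 2 h and then rose above its start. Its LR12 levels were 6.28, 6.48 and 7.36 at 0 h, 5.63, 5.76 and 6.22 at 2 h, 7.03, 7.21 and 7.97 at 4 h, then 7.07, 7.67 and 7.97 at 8 h. It fell at 2 h with no overlap (-0.76 ± 0.23, adjusted p = 0.00726), then stood above its start at 4 h (0.75, adjusted p = 0.00652) and 8 h (1.02 ± 0.23, adjusted p = 0.000581), each in 6 of 6 animals. The 2 h call was lost with quantile normalization (-0.50, adjusted p = 0.0816) and the 4 h call without Y31310 (0.071). From 2 to 4 h HSPA13 rose by 1.51 ± 0.23 (adjusted p = 3.83e-06), a call that every LR12 animal left out in turn kept. The peptide control animals had 6.27, 5.64, 6.61 and 5.53 at 0 h and 6.68, 7.65, 7.88 and 7.06 at 8 h, all above every starting value. That rise was 1.31 ± 0.28 (adjusted p = 0.0172, 4 of 4), and it was lost without Y31306 (0.488), Y31307 (0.146) or Y31308 (0.0804). At 4 h the peptide control change was 0.84 (adjusted p = 0.0633, and 0.0152 with the block). Vehicle animals had 7.06, 6.92, 5.93 and 5.99 and then 6.72, 6.48, 6.85 and 6.86 at 8 h (0.25, adjusted p = 0.994).

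Among the J-proteins of this compartment DNAJC1, which sits in the membrane near translating ribosomes, fell and did not return. Its LR12 levels were 7.83, 8.29 and 8.52 at 0 h, 6.90, 7.09 and 7.74 at 2 h, 6.43, 7.14 and 7.72 at 4 h, then 6.91, 7.51 and 7.84 at 8 h. The changes were -1.07 ± 0.23 (adjusted p = 0.000231), -1.16 (adjusted p = 6.07e-05) and -0.81 (adjusted p = 0.00587), each in 6 of 6, and centring ended the 8 h call (-0.53, adjusted p = 0.11). DNAJC10, a disulfide reductase that helps BiP, went from 5.42, 5.73 and 6.45 at 0 h to 4.43, 4.90 and 5.51 at 2 h, 4.26, 4.89 and 5.93 at 4 h, then 5.36, 5.90 and 6.31 at 8 h. It fell at 2 h (-0.89 ± 0.26, adjusted p = 0.00561) and 4 h (-0.85, adjusted p = 0.00701) and rose from 4 to 8 h (0.93 ± 0.26, adjusted p = 0.0194), the latter lost without any LR12 animal but Y31310 (0.0528 to 0.0875). The 4 h call was lost without Y31309 (0.0566) and with centring (0.119), and its other probe sets gave -2.07 to 0.08 at 2 h. DNAJC3 (-0.38, -0.10 and 0.43 at 2, 4 and 8 h) and DNAJB9 (-0.48, 0.24 and 0.13), both induced in the unfolded protein response, were not called at any hour, although DNAJB9 was lower at 2 h in 6 of 6 animals.

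**Figure D3:**
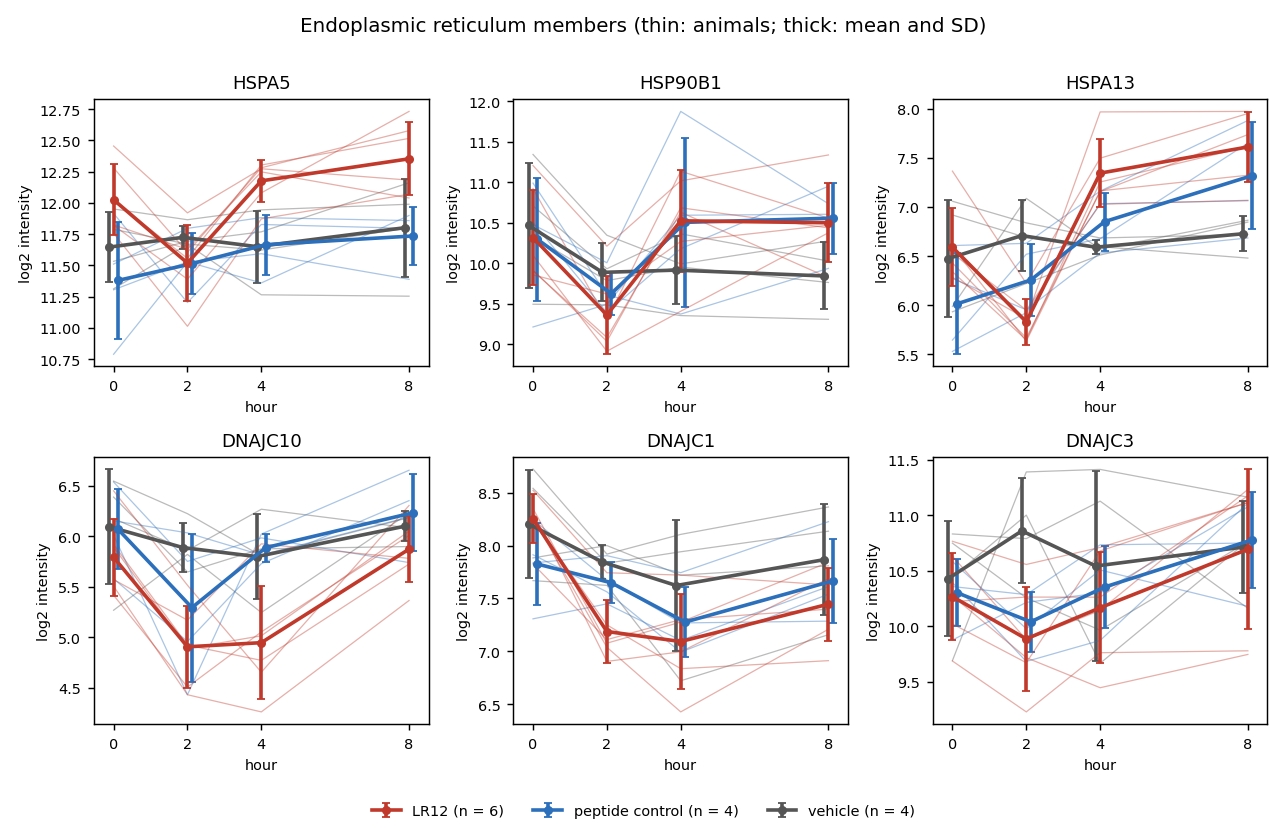
Log2 intensity of 6 members of the endoplasmic reticulum by hour, drawn as thin lines for animals and thick lines for arm means ± SD (LR12 red, n = 6; peptide control blue, n = 4; vehicle grey, n = 4). In the LR12 arm HSPA5, HSP90B1 and HSPA13 dip at 2 h (-0.51, -0.96 and -0.76) and are higher again at 4 h, while DNAJC1 stays low (-1.07, -1.16 and -0.81).

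Of 8 members known from mitochondria, again grouped with the values known, 4, 7 and 4 fell at 2, 4 and 8 h in the LR12 arm and none rose. Of all genes 21.9%, 26% and 20.4% fell at these hours. The median change of the 8 was -0.85, -0.86 and -0.80. They were HSPA9, HSPD1, HSPE1, DNAJA3, DNAJC11, DNAJC15, DNAJC19 and DNAJC30. DNAJC30 was not called at any hour (-0.20, 0.38 and -0.44). HSPA9, the matrix HSP70 also called mortalin, had LR12 levels of 9.88, 10.56 and 11.04 at 0 h, 8.94, 9.39 and 10.41 at 2 h, 9.01, 9.22 and 9.80 at 4 h, then 8.80, 9.25 and 9.97 at 8 h. It was lower in 6 of 6 animals at each hour, without overlap at 4 h. The changes were -1.05 ± 0.22 (adjusted p = 0.000221), -1.24 (adjusted p = 1.75e-05) and -1.22 (adjusted p = 5.62e-05), and every alternative tried kept these 3 calls. One of its other probe sets, dimmer than the second and not among these alternatives, gave 0.05, -0.05 and -0.13 at the 3 hours. The peptide control changes were -0.08, -0.55 and -0.43 and the vehicle changes -0.36, -0.49 and -0.44, none of them called.

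HSPD1 and HSPE1, the chaperonin ring and its lid, are neighbouring genes in the macaque gene table. HSPD1 had LR12 levels of 10.09, 10.55 and 11.76 at 0 h, 9.18, 9.97 and 10.44 at 2 h, 9.37, 10.11 and 10.28 at 4 h, then 8.83, 9.04 and 9.76 at 8 h. Only the 8 h levels lay wholly below the start, by -1.61 ± 0.31 (adjusted p = 9.49e-05), although all 6 animals were lower at each hour. The 2 h call (-0.85 ± 0.31, adjusted p = 0.0281) was lost without Y31310 (0.0802) or Y31312 (0.143) and with centring (0.0762). The 4 h call (-0.78, adjusted p = 0.0418) was lost without Y31309 (0.0965), Y31311 (0.127) or Y31312 (0.151), and its other probe sets gave -1.15 to 0.16. HSPE1 went from 8.99, 9.58 and 10.09 at 0 h to 8.22, 8.82 and 9.09 at 4 h (-0.76 ± 0.23, adjusted p = 0.00686) and 8.18, 8.35 and 8.70 at 8 h, the latter with no overlap (-1.14 ± 0.23, adjusted p = 0.000197). Centring ended its 4 h call (-0.50, adjusted p = 0.164).

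Outside the LR12 arm neither chaperonin gene was called without the block. Peptide control levels of HSPD1 were 9.75, 10.33, 10.51 and 9.13 at 0 h and 10.42, 9.93, 9.89 and 9.58 at 8 h, a change of 0.03. The gene's other probe sets gave -1.21 to -0.64 there, so the sign depended on the probe set. Vehicle levels of HSPD1 were 11.08, 11.60, 9.34 and 10.19 and then 10.36, 10.56, 8.97 and 9.49, lower in each animal but not called (-0.71, adjusted p = 0.821). HSPE1 changed by -0.77 at 4 h in the peptide control arm (adjusted p = 0.0875, and 0.034 with the block) and by -0.95 ± 0.28 at 8 h in the vehicle arm (adjusted p = 0.413).

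DNAJA3, the J-protein that works with HSPA9, had LR12 levels of 6.70, 7.55 and 8.36 at 0 h, then 5.80, 6.09 and 7.59 at 2 h. It fell at 2 h (-1.20 ± 0.29, adjusted p = 0.000984), 4 h (-1.19, adjusted p = 0.000889) and 8 h (-0.88, adjusted p = 0.0169), each in 6 of 6. The 8 h call was lost without Y31311 (0.0518) or Y31312 (0.138) and with centring (0.168), and the second probe set gave -0.53 at 2 h (adjusted p = 0.0781) and -0.54 at 4 h (adjusted p = 0.0639). DNAJC19, a J-protein of the inner membrane import motor, had 8.16, 8.52 and 9.11 at 0 h, 6.86, 7.22 and 8.32 at 2 h, then 7.38, 7.67 and 8.10 at 4 h. It fell at 2 h (-1.11 ± 0.20, adjusted p = 2.79e-05) and at 4 h without overlap (-0.84, adjusted p = 0.000808), and its 8 h change of -0.45 was called only with the block (adjusted p = 0.0937 without and 0.0323 with it). Its second probe set was not called at 2 h (-0.47, adjusted p = 0.24) or 4 h (-0.61, adjusted p = 0.0952). DNAJC15, a relative of DNAJC19, and DNAJC11 passed the threshold at 4 h by a small margin (-1.02, adjusted p = 0.0448, and -0.87, adjusted p = 0.0458). DNAJC15 lost its call without any of Y31311 to Y31314 (0.065 to 0.164) and DNAJC11 without any of Y31309 to Y31313 (0.0754 to 0.12), and centring ended both (0.188 and 0.21). T cell markers, of which 11 of 11 fell at 4 and 8 h, moved in the same direction as these members, and their part was not tested.

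**Figure D4:**
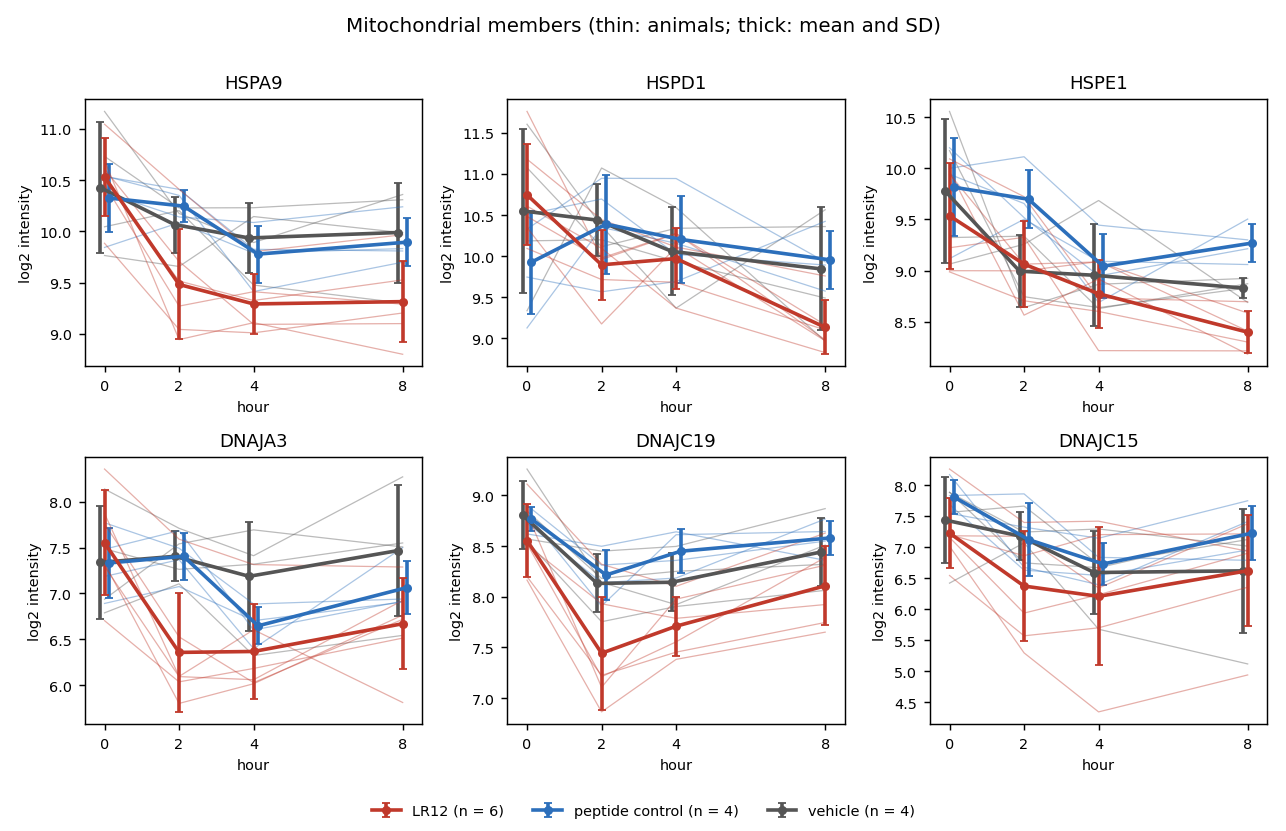
Log2 intensity of 6 mitochondrial members by hour, as thin lines for animals and thick lines for arm means ± SD (LR12 red, n = 6; peptide control blue, n = 4; vehicle grey, n = 4). The LR12 means of HSPA9 and HSPD1 end 1.22 and 1.61 below 0 h at 8 h. The peptide control changes at that hour are -0.43 and 0.03 and the vehicle changes -0.44 and -0.71. Other probe sets of HSPD1, not drawn, gave -1.21 to -0.64 in the peptide control.

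HSPA6, an HSP70 that cells make chiefly under severe stress, was lower after 0 h in the LR12 arm. Its levels were 6.20, 6.89 and 7.67 at 0 h, 4.54, 4.91 and 5.89 at 2 h, 4.75, 6.01 and 6.54 at 4 h, then 4.56, 5.87 and 7.31 at 8 h. All 2 h levels lay below all 0 h levels (-1.89 ± 0.35, adjusted p = 3.26e-05). The 4 h call (-1.15, adjusted p = 0.00737) was lost with centring (0.0619), with quantile normalization (0.0679) and on the arrays with low spike-in control alone (0.102). The 8 h call (-0.96, adjusted p = 0.0338) was lost without Y31309 (0.11), Y31311 (0.107) or Y31312 (0.144), and on the low-control arrays alone the difference was 0.12.

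In the peptide control arm the 4 HSPA6 levels went from 6.50, 7.15, 6.79 and 6.84 at 0 h to 6.54, 6.11, 5.60 and 6.09 at 2 h, lower in 3 animals (-0.73, adjusted p = 0.448). The vehicle levels were 7.30, 5.54, 6.49 and 6.75 and then 7.45, 5.98, 6.13 and 6.69, a change of 0.04. The second HSPA6 probe set, nearly as bright, gave 2 h changes of -0.49 in vehicle, -1.68 in the peptide control and -2.89 in LR12. The 2 h change in LR12 minus that in vehicle was -1.94 ± 0.55 (95% interval -3.05 to -0.82, adjusted p = 0.049). HSPA6 was the 1 member called in the 6 comparisons of changes between arms, where 2.17% of all genes were called for this one (1.39% lower and 0.78% higher). At 4 and 8 h against vehicle 0.218% and 0% of all genes were called, and 0% at each hour against the peptide control. In these other comparisons limma called 0 members, while 5 and 10 members had an unadjusted p below 0.05 against vehicle at 4 and 8 h and 15, 6 and 7 against the peptide control. The call lay at the threshold, and it was lost without Y31301, Y31302, Y31304 or any LR12 animal but Y31309 (adjusted p from 0.0599 to 0.212). It was also lost with centring (0.108), quantile normalization (0.0727) and the spike-in control class as a covariate (0.0759). Against the peptide control the difference in change was -1.16 (adjusted p = 0.401).

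DNAJB2, a J-protein that passes ubiquitinated clients to the proteasome, fell at all 3 hours in the LR12 arm. Its levels were 7.03, 8.05 and 8.21 at 0 h, 5.93, 6.76 and 7.71 at 2 h, 5.65, 6.03 and 6.57 at 4 h, then 5.99, 6.20 and 7.14 at 8 h. The changes were -1.17 ± 0.26 (adjusted p = 0.000479), -1.81 ± 0.26 with no overlap (adjusted p = 5.29e-07) and -1.49 (adjusted p = 3.37e-05), each in 6 of 6. In the peptide control arm its levels went from 7.23, 7.60, 7.76 and 7.20 at 0 h to 6.76, 6.67, 6.84 and 6.94 at 4 h and 7.03, 6.14, 6.21 and 6.86 at 8 h. Both later hours lay below every starting level, but neither was called (-0.65, adjusted p = 0.215, and -0.89, adjusted p = 0.172). Vehicle levels were 8.44, 8.42, 7.88 and 7.68 at 0 h and 8.05, 8.16, 7.82 and 7.74 at 4 h, a change of -0.16. At 2 and 8 h the vehicle changes were -0.39 and -0.51, and none of these was called. The 4 h change in LR12 differed from that in vehicle by -1.65 with the block (adjusted p = 0.00959, and 0.0726 without it).

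DNAJC13, a J-protein of endosome sorting, rose late. Its LR12 levels were 9.21, 9.50 and 9.83 at 0 h, 9.67, 9.75 and 10.33 at 2 h, 10.29, 10.70 and 11.20 at 4 h, then 10.61, 10.87 and 11.17 at 8 h. The rises at 4 h (1.18 ± 0.17, adjusted p = 3.93e-07) and 8 h (1.38 ± 0.17, adjusted p = 5.6e-08) had no overlap with 0 h, and its second brightest probe set gave 0.83 (adjusted p = 0.0725) and 0.80 (adjusted p = 0.0991). The 2 h change of 0.37 was called only with the block (adjusted p = 0.0884 without and 0.0346 with it).

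In the other arms the peptide control alone had a call. Peptide control levels of DNAJC13 were 9.65, 9.66, 9.52 and 9.98 at 0 h and 10.02, 10.49, 10.73 and 10.78 at 8 h, a rise of 0.80 ± 0.21 (adjusted p = 0.045) that was lost without Y31306 (0.526), Y31307 (0.367) or Y31308 (0.109), and its other probe sets gave -0.18 to 0.27. Vehicle levels were 9.71, 9.97, 9.86 and 9.80 and then 9.56, 10.04, 10.66 and 10.10 at 8 h, with only Y31303 clearly above its start. With the block the change in LR12 exceeded that in vehicle by 0.80 at 4 h (adjusted p = 0.0244, and 0.125 without it) and by 1.13 at 8 h (adjusted p = 0.0107, and 0.103 without it). Against the peptide control the difference in change was 0.68 at 4 h (95% interval 0.14 to 1.21, adjusted p = 0.635) and 0.58 at 8 h (0.049 to 1.11, adjusted p = 0.859), neither of them called.

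DNAJB14, a J-protein of the endoplasmic reticulum membrane with its J domain in the cytosol, rose at 4 h (1.30 ± 0.45, adjusted p = 0.0198) and 8 h (1.48, adjusted p = 0.0109) in the LR12 arm. The levels were 5.43, 6.16 and 6.82 at 0 h, 6.15, 7.20 and 8.75 at 4 h, then 6.55, 7.75 and 8.55 at 8 h, with overlap at both hours. The 4 h call was lost without Y31310 (0.0514), Y31311 (0.0765) or Y31312 (0.055) and the 8 h call without Y31309 (0.0524) or Y31312 (0.0823). Peptide control animals instead started higher, at 7.72, 7.30, 6.93 and 7.69, stood at 5.60, 6.67, 6.47 and 6.08 at 2 h (-1.20, adjusted p = 0.284) and reached 7.20, 8.41, 8.32 and 8.57 at 8 h (0.39). The gene's other probe sets gave -0.45 to -0.16 at 2 h and 1.04 to 1.06 at 8 h in that arm. In the LR12 arm they gave 1.49 to 1.51 at 8 h.

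DNAJC21 and DNAJC2 were called at 2 h in the LR12 arm. DNAJC21, which takes part in building the large ribosomal subunit, had 8.01, 8.43 and 8.82 at 0 h, then 6.89, 7.52 and 8.08 at 2 h, and it fell at 2 h (-0.94 ± 0.23, adjusted p = 0.00119), 4 h (-0.82, adjusted p = 0.0036) and 8 h (-0.94, adjusted p = 0.0016), each in 6 of 6. Centring ended the 4 h call (-0.56, adjusted p = 0.0852). Its other probe sets gave -1.08 to 0.71 at 2 h, so the sign depended on the probe set. DNAJC2, a chaperone bound to ribosomes, had 9.19, 9.69 and 9.96 at 0 h, then 8.57, 8.89 and 9.40 at 2 h (-0.74, adjusted p = 0.0168, 6 of 6), a call lost without Y31311 (0.0538) or Y31313 (0.0566) and with centring (0.0618), and it was not called at 4 h (-0.32) or 8 h (-0.29). HSPA14, the HSP70-like partner of DNAJC2, changed by -0.68 at 2 h (adjusted p = 0.0296), a call lost without Y31309 (0.0545), Y31311 (0.118), Y31312 (0.0746) or Y31313 (0.126) and with its second probe set (0.19, adjusted p = 0.743). Among the remaining DNAJC genes DNAJC4 fell at 4 h (-1.03, adjusted p = 0.000503) and 8 h (-0.70, adjusted p = 0.0216), with other probe sets reaching 0.91 at 4 h. The 8 h call of DNAJC4 was lost without Y31310 (0.0533), Y31312 (0.0904) or Y31314 (0.054) and with centring (0.229). At 8 h DNAJC8, which is found with splicing factors, fell by 0.74 (adjusted p = 0.0013), and centring ended the call (-0.46, adjusted p = 0.105).

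Small heat shock proteins and some tissue-restricted members were dim. Group means below about 2 on the log2 scale lie below the 20th percentile of an array, where a difference has no defined size. HSPB8, which works with the co-chaperone BAG3, had LR12 levels of -0.69, 2.36 and 3.97 at 0 h, 3.44, 3.78 and 4.30 at 2 h, then 1.64, 4.03 and 4.55 at 4 h. It rose at 2 h (1.67 ± 0.61, adjusted p = 0.029, 5 of 6) and 4 h (1.53, adjusted p = 0.0416, 6 of 6), from a start that spanned the dim range. The 0 h mean of HSPB8, 2.14, lies below the 20th percentile of those arrays (2.25), so the sizes of these rises are not defined. Adding 16 to the intensities ended both calls (adjusted p = 0.0599 and 0.0546), as did leaving out Y31309 (0.0567 and 0.0898) or Y31310 (0.223 and 0.252) at either hour, Y31311 at 2 h (0.0916) or Y31313 at 4 h (0.111). HSPB6 had -0.03, 4.33 and 4.95 at 0 h, then 3.59, 4.80 and 5.41 at 2 h, higher in 4 of 6 (1.19 ± 0.46, adjusted p = 0.042), a call lost without Y31311 (0.338), Y31312 (0.0628) or Y31313 (0.19). Its second probe set gave 0.21 at 2 h (adjusted p = 0.742) and -0.46 at 4 h (adjusted p = 0.356). HSPB1, the small heat shock protein HSP27, spread from 2.63 to 9.72 at 0 h in the LR12 arm and was not called in any comparison.

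HSPA12A, an atypical HSP70, changed by 1.85 ± 0.74 at 4 h (adjusted p = 0.0432, 6 of 6), but its second probe set gave -2.08, and the call was lost without Y31310 (0.133), Y31311 (0.186) or Y31313 (0.126). DNAJC6, the auxilin that strips clathrin from vesicles in neurons, changed by -2.02 ± 0.61 at 8 h (adjusted p = 0.00998, 5 of 6). Its probe set lay above the median on 4 arrays, the fewest that the filter allows. From a mean of 3.14 at 0 h it fell below the 20th percentile of the 8 h arrays (1.64), so the size of this change is not defined. With 16 added to the intensities the DNAJC6 change was -0.34 (adjusted p = 0.135), and the call was lost without Y31311 (0.0628) or Y31314 (0.0769).

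Between arms few members were called at a given hour. LR12 and the peptide control did not overlap in 2, 2, 2 and 3 members at 0, 2, 4 and 8 h (1.26%, 3.33%, 4.36% and 2.17% of all genes). For LR12 and vehicle these were 0, 5, 3 and 3 members (1.39%, 6.45%, 5.27% and 2.78% of all genes). At 0 h no member was called between any pair of arms, with 0% to 0.0187% of all genes called. An unadjusted limma p below 0.05 was found there for 9 members between LR12 and the peptide control. For LR12 against vehicle it was 1 member and for the peptide control against vehicle 3. Against the peptide control HSPH1 (0.95), HSPD1 (0.82) and HSPA5 (0.65) started higher in LR12 and DNAJB14 lower (-1.25), and these starts enter their changes from 0 h. LR12 and the peptide control differed in 2 members at 2 h (2.95% of all genes), 1 at 4 h (1.35%) and 0 at 8 h (0.0187%). The 2 were lower in LR12, as were 2.71% of all genes (0.237% were higher), and the 1 was higher, as were 0.375% (0.98% were lower). DNAJC21 was lower in LR12 at 2 h without overlap (-0.92 ± 0.26, adjusted p = 0.039), against peptide control levels of 8.12, 8.76, 8.41 and 8.40, and DNAJC19 was lower by 0.77 (SE 0.23, adjusted p = 0.049). Both calls were lost without any single peptide control animal or without Y31310, Y31312, Y31313 or Y31314 (0.0565 to 0.137 for DNAJC21 and 0.0636 to 0.205 for DNAJC19), and with centring (0.0998 and 0.121). With the block DNAJA3 (-1.05, adjusted p = 0.0306) and HSPA9 (-0.76, adjusted p = 0.046) were added. At 4 h HSPA4L, an HSP110, was higher in LR12, at 3.23, 3.54 and 4.34 against 0.90, 3.46, -1.78 and 2.03 (adjusted p = 0.023). The peptide control mean of 1.15 lies below the 20th percentile of those arrays (1.70), so the size of this difference is not defined. Its second probe set gave -0.051, and the call was lost without Y31305 (0.0976), Y31307 (0.169), Y31312 (0.0586) or Y31313 (0.0653).

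LR12 and vehicle differed in 11 members at 2 h (15.9% of all genes), 4 at 4 h (11.9%) and 4 at 8 h (2.72%). Higher in LR12 were 2, 2 and 3 members (4.61%, 4.36% and 0.93% of all genes) and lower 9, 2 and 1 (11.3%, 7.56% and 1.79%). These counts depended on single animals. At 2 h they were 3, 6, 17 and 5 without Y31301, Y31302, Y31303 and Y31304, 18 without Y31309 and 6 without Y31312 or Y31313. At 4 h they were 1 without Y31301 or Y31304, 13 without Y31303 and 2 without Y31312 or Y31313. At 8 h they were 1, 0, 14 and 1 without Y31301 to Y31304, 9 without Y31309 and 2 without Y31310, Y31311 or Y31312. At 2 h DNAJA1 (1.22 ± 0.34, adjusted p = 0.009) and DNAJB1 (0.83, adjusted p = 0.024) were higher in LR12. DNAJA1 lost its call without Y31301 (0.0588) or Y31302 (0.0733), and DNAJB1 without Y31301 (0.123), Y31304 (0.132), Y31312 (0.0719) or Y31313 (0.0757). Lower in LR12 were HSPA6 (-1.53 ± 0.39, adjusted p = 0.005), DNAJA3 (-1.05, adjusted p = 0.020), DNAJC2 (-1.04, adjusted p = 0.007), DNAJC10 (-0.98, adjusted p = 0.014) and DNAJB2 (-0.98, adjusted p = 0.018) among 9. HSPA6 and DNAJC2 had no overlap between the arms. DNAJA3 lost its call without Y31310, Y31313, Y31301, Y31302 or Y31304 (0.05 to 0.0692), DNAJC10 without Y31301 (0.0779) and DNAJB2 without Y31312 (0.0585) or Y31313 (0.0574).

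At 4 h DNAJB2 was lower in LR12 than in vehicle by 1.85 (SE 0.30), without overlap, and the call was kept with any 1 animal left out (on the high-control arrays alone its adjusted p was 0.145). DNAJB11, a lumenal co-chaperone of BiP, was higher (0.72 ± 0.20, adjusted p = 0.014), a call lost without Y31301 (0.081) or Y31304 (0.137). HSPA13 was higher (0.75, adjusted p = 0.042) and DNAJC10 lower (-0.85, adjusted p = 0.042). HSPA13 lost this call and its 8 h call without any of Y31310 to Y31313, Y31301, Y31302 or Y31304 (0.0532 to 0.117 at 4 h and 0.0581 to 0.229 at 8 h), and DNAJC10 without any animal but Y31310 and Y31303 (0.054 to 0.198). At 8 h DNAJC13 (0.80 ± 0.19, adjusted p = 0.014) and HSPA13 (0.88, adjusted p = 0.043) were higher and DNAJB2 lower (-1.18, adjusted p = 0.023). DNAJC13 lost that call without Y31301 (0.176), Y31302 (0.079) or Y31304 (0.0602), and DNAJB2 without any of Y31310 to Y31312, Y31301, Y31302 or Y31304 (0.0549 to 0.189). HSPB9 was higher too (2.33 ± 0.47, adjusted p = 0.004), set against vehicle levels of 2.03, 0.66, 1.65 and 2.26 with a mean below the 20th percentile of the arrays, and it lost the call without Y31302 (0.059). Between the peptide control and vehicle arms no member was called at any hour, with at most 0.00624% of all genes called. At 2, 4 and 8 h 3, 4 and 3 members did not overlap (3.08%, 3.25% and 2.8% of all genes). Members with an unadjusted limma p below 0.05 numbered 5, 8 and 5. Without Y31303 4 members were called at 4 h and 3 at 8 h, and without Y31305 2 at each of these hours.

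The wider chaperone system, a list of 86 tested genes of 95, gave 7 rises and 35 falls at 2 h in the LR12 arm, 10 and 30 at 4 h and 12 and 25 at 8 h. Of all genes 10.1%, 10.8% and 8.65% rose and 21.9%, 26% and 20.4% fell. Of 18 HSP90 co-chaperones 2, 2 and 1 rose and 8, 8 and 9 fell, and of 14 subunits of the cytosolic chaperonin CCT and its helper prefoldin 2, 1 and 1 rose and 6, 8 and 7 fell. Of 16 partners of HSP70 0, 2 and 3 rose and 6, 6 and 4 fell. The 25 genes of the unfolded protein response and folding in the endoplasmic reticulum went from 1 rise and 11 falls at 2 h to 3 and 5 at 4 h and 5 and 2 at 8 h, with median changes of -0.31, -0.24 and 0.16. Of the 4 tested HSF genes and regulators none rose, and 0, 1 and 1 fell. Among the single genes at 2 h, PPP1R15A, the stress-induced subunit that reverses eIF2-alpha phosphorylation, rose by 1.76 ± 0.30 (adjusted p = 9.13e-06). CHORDC1, an HSP90 co-chaperone, rose by 1.24 ± 0.31 (adjusted p = 0.00152), while the HSP90 co-chaperones FKBP4 (-1.84 ± 0.28, adjusted p = 1.27e-06) and PPP5C (-2.18 ± 0.54, adjusted p = 0.00132) fell. In mitochondria the protease LONP1 fell (-1.85 ± 0.53, adjusted p = 0.00543) and the protease HTRA2 rose (1.10 ± 0.22, adjusted p = 7.25e-05). In the peptide control arm this list gave 3, 1 and 1 rises and 0, 1 and 0 falls, and in the vehicle arm none.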

How the data were processed

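The deposited values were log2-transformed: per the submitters' processing notes they are MAS5 intensities on a linear scale, 1 column for each of 56 arrays of 14 animals. The settings of MAS5 are not given in the sources used here. With the extreme values trimmed, the array means ran only from 150.026 to 150.037, so the arrays had been scaled to a common mean. The array medians of the LR12 arm still averaged 18.6 at 0 h and 17.8, 15.5 and 15.3 at 2, 4 and 8 h. RNA (50 ng) was amplified and labelled as cDNA with a whole-blood kit, per the labels' protocols. Probe sets were named from the platform's annotation, 138 of 162 candidate probe sets passed the filter, and 13 that list several symbols were left out. Of the members 62 matched the macaque gene table by symbol.

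A mean for each of 12 groups of arm and hour was fitted to all 56 arrays with limma 3.58.1 (statmod 1.5.0, R 4.3.3; trend and robust moderation), giving 29 comparisons, each adjusted over 16020 genes. Tests are two-sided. The number of arrays limits the precision, and the replicates are separate animals. The fit was tested on simulated data. Text names the core members, the 5 largest called rises and falls against 0 h and called members between arms (10, or 5 each way). DNAJC4, DNAJC8, DNAJC11, DNAJC15, DNAJC30, HSPA4 and HSPA14 were named after their values were seen. The members and lists were chosen with earlier results of these data known, and the compartment groups with these values known.

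The arrays of an animal share deviations (mean r of 0.18 within animals, -0.0294 between), so the animal was also fitted as a random block (consensus correlation 0.221). A spike-in control split the arrays into 24 high and 32 low. At 0, 2, 4 and 8 h high arrays numbered 2, 0, 2 and 2 of the vehicle arm, 3, 1, 4 and 3 of the peptide control and 1, 1, 2 and 3 of LR12. This was tried as a covariate and, chosen after seeing the data, within each class. Other alternatives were the filter, an offset of 16, array centring, quantile normalization, the second probe set, the moderation, the groups fitted and each animal left out.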

Additional observations from a re-analysis of the deposited data

Results flagged for a closer look

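In 13 of 156 groups of 4 or 6 animals 1 animal stood apart from the rest by Dixon's criterion at its 95% value, which chance alone passes in about 1 of 20 groups. The peptide control animal Y31305 was low at 2 h for DNAJA1 (9.913, next 11.73) and DNAJB1 (9.114, next 9.895), low at 8 h for DNAJB9 (5.348, next 6.238) and high at 0 h for DNAJB9 (5.47, next 5.223). Among vehicle animals Y31303 at 8 h was low for HSP90AB1 (10.41, next 11.9) and high for HSPB1 (4.541, next 3.476). Y31304 at 2 h was low for HSP90AB1 (11.49, next 12.09) and HSPA9 (9.657, next 10.17), and Y31302 at 2 h was high for HSPA5 (11.87, next 11.69). In the LR12 arm Y31309 at 8 h was high for HSPB1 (8.104, next 4.843), HSPD1 (9.759, next 9.164) and HSPH1 (10.72, next 9.573), and Y31310 at 8 h was high for DNAJA1 (10.93, next 10.4). The remaining result is a difference between arms tested as an interaction: the 2 h change of HSPA6 was lower in LR12 than in vehicle by -1.936 on the log2 scale.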

How the results depend on the processing

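Array centring moved the median change of all genes in LR12 from -0.18, -0.29 and -0.27 to -0.12, -0.02 and 0.009 at 2, 4 and 8 h, and that of the members to -0.37, 0.001 and -0.12. It left 5 rises and 9 falls of members (2 h), 8 and 7 (4 h), and 6 and 8 (8 h). Of all genes 10.4%, 15.4% and 13.7% then rose and 18.7%, 16.8% and 9.83% fell. A difference between members and all genes was not tested. With quantile normalization LR12 had 5 rises at 8 h. LR12 rises at 2 h were 3 with the stricter filter, the low-control arrays, the offset or only the groups compared, and 3 to 5 with an animal left out. At 4 h they were 3 on the low-control arrays and 2 to 6 with an animal left out (2 without Y31310). Peptide control calls at 2 h were 2 with the stricter filter, 0 with only the groups compared and 3 with quantile normalization. At 4 h they were 2 with centring and 1 under those 3 settings. At 8 h they were 1 on the high-control arrays, without a filter, without trend and with the second probe set, and 0 with only the groups compared. Leaving out an animal gave 0 to 2, 0 to 4 (4 without Y31305) and 0 to 2. The vehicle arm had 1 call at 2 h on the low-control arrays and 0 to 1 at 8 h with an animal left out. LR12 against peptide control at 2 h called 5 members with the stricter filter, 7 with the spike-in class covariate, 1 without a filter, without trend or with the offset, and 0 with centring, quantile normalization, the low-control arrays, only the groups compared or the second probe set. At 4 h it called 2 with the stricter filter and 0 on the high-control arrays, with the offset, with only the groups compared or with the second probe set. Leaving out an animal gave 0 to 7 and 0 to 2. LR12 against vehicle at 2 h called 7 with centring and 6 with only the groups compared. At 4 h it called 9 with the spike-in class covariate, 8 on the low-control arrays, 2 without a filter, 1 with centring or only the groups compared, and 0 on the high-control arrays. At 8 h it called 11 on the low-control arrays, 2 with centring or the second probe set, and 0 on the high-control arrays or with only the groups compared. Leaving out an animal gave 3 to 18, 1 to 13 and 0 to 14. The change against vehicle at 2 h called 0 under every alternative but the stricter filter and the block, at 4 h 1 with the stricter filter, and 0 to 3, 0 to 1 and 0 to 2 at the 3 hours with an animal left out. The causes were not tested.

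With the animal as a replicate block all 98 member calls over the 29 comparisons were kept and 32 were added. The block called 1 member (DNAJC8) at 4 h and 1 (HSPB9) at 8 h in the vehicle arm, 3 and 5 at 2 and 4 h in the peptide control, 4 for LR12 against peptide control at 2 h, and 4, 2 and 1 for the change against vehicle.

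A sign turned in 3 named results that had been called: HSPA12A at 4 h in LR12 (-2.08 with the second probe set), HSPA4L between LR12 and peptide control at 4 h (-0.051 with the second probe set) and HSPA6 at 8 h in LR12 (0.12 on the low-control arrays). Of the other named values under the alternatives, 1774 kept their side of the threshold, 252 lost a call and 23 gained one. Changes of sign among values that were not called are not counted here. HSPA12A at 2 h in LR12, for example, ranged from -1.46 to 1.69 over the alternatives. Dim probe sets, mainly of small heat shock proteins, limit what can be read.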
